A study of Mus musculus with 42 samples.

Results

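RNA of lung mesenchymal cells kept for 5 days on soft gels was compared with RNA of the same kind of cell taken straight from the lung. The comparison used every RNA library that the labels give as CD1 sham or CD1 0.2 kPa, 3 of each, which are 6 of the 42 samples in the series. The series also holds stiff gels of 32 kPa, accessible chromatin of the CD1 cells and cells of another strain, under a title that sets the in vitro state against the in vivo state. Both groups came from CD1 mice with a Col1a1-GFP reporter, in which a green fluorescent protein marks cells that use the promoter of the collagen gene Col1a1. Lungs were digested for 45 min with Liberase and DNase, and live cells that were positive for GFP and negative for CD45, EpCAM and CD31 were isolated by sorting. Sham cells were lysed after the sort. The culture group grew in DMEM with 10% fetal bovine serum and an antibiotic-antimycotic on silicone gels coated with type I collagen, with a stiffness of 0.2 kPa. The labels state neither the age of the mice nor the sham procedure, nor whether cultured cells were sorted again. The reporter limits both groups to cells with an active Col1a1 promoter at the time of sorting.

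Lung fibroblasts are mesenchymal cells that build and maintain the connective tissue of the lung. In tissue they secrete collagens, proteoglycans, elastic fibre proteins and plasma-like proteins such as complement, and most of them do not divide. Serum and an artificial surface are known to bring such cells into the cell cycle and to change their secretion, and gels of low stiffness are used to lessen the effect of rigid plastic.

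Recovered reads numbered 57947660 to 69524944 in the sham libraries and 40858047 to 48448507 in the soft gel libraries. Levels are given as CPM, the reads of a gene per 1000000 recovered reads of its library. Of 26323 named genes, 18480 had a mean rescaled value of at least 1 and were tested. By limma with Benjamini-Hochberg adjustment, 5896 genes were higher on the soft gel (31.9% of those tested) and 7239 were lower (39.2%), so that 71.1% differed in either direction at an adjusted p of at most 0.05. The 3 libraries of 1 group lay outside the range of the other for 76.4% of genes. A change of at least 2-fold was called for 3920 higher and 5618 lower genes, and a change of at least 32-fold for 198 higher and 777 lower genes. The median log2 fold change of all genes tested was -0.22, and scaling by total reads in place of median-of-ratios moved it to -0.02. CPM values follow total reads and fitted values follow the median-of-ratios scale, so a ratio of mean CPM need not equal the fitted fold change of the same gene. A rise or fall below means a limma call, and each log2 fold change (0.2 kPa minus sham) is given with its standard error (SE). Genes given library by library had groups that did not overlap, unless stated.

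Sham replicate 2 stood apart from the other sham libraries in the markers of several cell types, which bears on some results below. Markers of smooth muscle summed to 0.375, 0.104 and 0.428% of reads in sham replicates 1 to 3. Markers of the mesothelium, the cell layer on the lung surface, summed to 0.00488, 0.0196 and 0.00435%. Replicate 2 was thus lowest for smooth muscle and highest for mesothelium, and it was also highest for epithelial, leukocyte and red cell markers. In bulk samples, fewer cells of a type and less RNA per cell cannot be told apart.

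**Figure D1:**
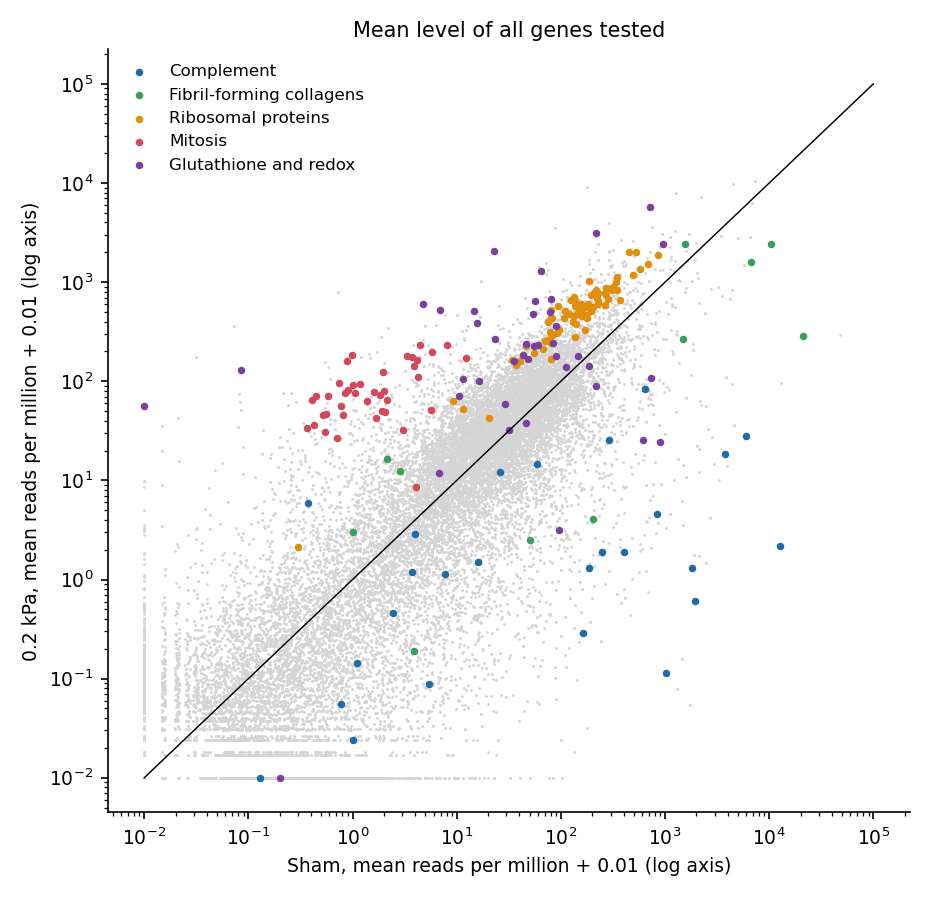
Mean level of each tested gene in sham (x axis) and on 0.2 kPa gels (y axis), both as CPM + 0.01 on log axes, with the line of equality. Complement genes lie below the line with 1 exception called higher, and all 40 mitosis genes and all 78 ribosomal protein genes lie above it.

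The soft gel libraries spread their reads over more genes, while the sham libraries held a larger share in their most abundant genes. The 10 most abundant genes of a library took 12.98 to 14.7% of reads in sham and 6.64 to 6.96% on the soft gel. As few as 414 to 472 genes held 50% of the reads of a sham library, against 690 to 708 on the soft gel. Gsn, encoding the actin-severing protein gelsolin, was the most abundant gene of every sham library, at 44647, 50856 and 49350.4 CPM, and stood at 276, 288 and 317 CPM on the soft gel. Its groups did not overlap and it fell with a log2 fold change of -7.54 ± 0.13. The collagen genes Col3a1, Col1a2 and Col1a1, the proteoglycan genes Dcn and Bgn, the complement genes C3 and Serping1, the glycoprotein gene Sparc and the ribosomal RNA entry Rn45s made up the rest of the sham top 10. On the soft gel the top 10 included Rn45s, Eef1a1, Actb, Vim, Bgn, Ftl1, Csf1, Thbs1 and Timp1. Bgn and Rn45s were on both lists. Rn45s is a precursor of ribosomal RNA whose level can depend on how well such RNA was removed. It stood at 5648, 10032 and 6261 CPM in sham and 10392, 10133 and 10843 CPM on the soft gel, with the highest sham library close to the lowest soft gel library (0.38 ± 0.30, not called). Eef1a1, a translation elongation factor, rose from 4535 to 9799 CPM with a log2 fold change of 0.93 ± 0.17. Vim, the intermediate filament protein of mesenchymal cells, rose from 2215 to 7231 CPM (1.53 ± 0.16).

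The matrix genes split, with most proteins of the interstitial and basement membrane matrix lower and a short list of others higher. Of 11 fibril-forming collagen genes tested, 7 were lower and 2 higher, beside 39.2% and 31.9% of all genes tested, with a median log2 fold change of -2.25 against -0.22 for all genes. Col3a1, the fibril collagen of pliable tissue, stood at 19190.4, 17994 and 25539 CPM in the sham libraries and 288, 288 and 273 CPM on the soft gel. Every soft gel library was lower than every sham library, and the log2 fold change was -6.37 ± 0.15. Col1a1, the gene whose promoter drives the reporter, stood at 5431, 5794 and 8739 CPM in sham and 1329.8, 1549.6 and 1919 CPM on the soft gel. It fell less far than Col3a1, with a log2 fold change of -2.22 ± 0.21, and its groups did not overlap. Col1a2, its partner chain, fell by a similar amount (-2.25 ± 0.17). Per kilobase of exon, Col3a1 went from 3758 to 50.9 CPM and Col1a1 from 1122 to 269.7 CPM, so the order of these 2 genes changed from Col3a1 above Col1a1 to the reverse. Col5a2, a chain that controls fibril width, went the other way (from 1569 to 2447 CPM, 0.47 ± 0.17), while its partner Col5a1 fell from 1485 to 265 CPM (-2.65 ± 0.16). The other member that rose was the minor chain Col11a1, from 2.82 to 12.5 CPM (1.81 ± 0.39). The Col5a2 call was lost without any 1 of sham replicate 1, sham replicate 2 or the 3 soft gel replicates, with log2 fold changes of 0.33 to 0.50 in those fits. After Col3a1, the next largest fall of the list was that of Col5a3, a minor chain of the same family as Col5a1 (from 205 to 4.06 CPM, -5.84 ± 0.22).

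Among 16 collagens of networks and beaded filaments, 12 were lower and 0 higher (median -4.42). Col6a1, a chain of the beaded collagen VI that surrounds cells, fell from 2586 to 33.04 CPM (-6.48 ± 0.13). Col6a6, another chain of that family, fell from 90.4 to 0.0521 CPM (-10.47 ± 0.65). Col4a1 and Col4a2, the pair of basement membrane chains found in most tissues, differed far less. Col4a1 fell from 1345 to 1044 CPM (-0.53 ± 0.15), a call lost with scaling by total reads (-0.33). Col4a2 stood at 603 and 606 CPM (-0.15 ± 0.17, not called), and it was called lower without sham replicate 2 (-0.36). Col14a1, which sits on the surface of fibrils, fell from 3901 to 14.1 CPM (-8.29 ± 0.26) and Col12a1, of the same class, rose from 106 to 230.1 CPM (0.96 ± 0.18). Over the 17 genes of that class and its relatives, 10 were lower and 2 higher, beside 39.2% and 31.9% of all genes tested. Other chains of collagen VI fell as well, Col6a2 (from 2029.9 to 22.1 CPM, -6.71 ± 0.15) and Col6a3, the longest of them (from 1363 to 151 CPM, -3.34 ± 0.14), with Col6a3 the least. Col6a5 fell from 61.96 to 0.0452 CPM (-9.98 ± 0.49). Col15a1 and Col18a1, which link basement membranes to the matrix beneath, fell (from 1782 to 115 CPM, -4.12 ± 0.14) and (from 303 to 11.5 CPM, -4.83 ± 0.24). Col7a1, the collagen of anchoring fibrils, rose (from 4.76 to 10.4 CPM, 0.91 ± 0.23), and the transmembrane collagen Col23a1 fell (from 126 to 1.1998 CPM, -6.89 ± 0.20). Without sham replicate 1 the count of network and beaded collagens called higher was 1 in place of 0.

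The small leucine-rich proteoglycans, which bind collagen fibrils and set their spacing, had a median log2 fold change of -5.63. Of 16 tested, 13 were lower and 2 higher. Dcn, decorin, stood at 12868, 15769 and 10592 CPM in sham and 93.5, 100.4 and 94.96 CPM on the soft gel, without overlap, and fell with a log2 fold change of -7.25 ± 0.15. Lum, lumican, fell from 2099.6 to 20.6 CPM (-6.84 ± 0.13), and Podn, podocan, fell from 412 to 0.643 CPM (-9.48 ± 0.28). Bgn, biglycan, was the exception among the abundant members. It stood at 6679.5, 7071 and 6583 CPM in sham and 6135, 6236 and 6666 CPM on the soft gel, with groups that overlapped and a log2 fold change of -0.28 ± 0.16 that was not called by limma or edgeR. DESeq2 called it lower at about the same size (-0.28). Biglycan and decorin are close relatives in structure, and per kilobase of exon Dcn went from 6215 to 45.8 CPM while Bgn stood at 2725 and 2551 CPM. Ecm2, a matrix protein with the same repeats, fell (from 561 to 1.17 CPM, -9.06 ± 0.26). The 2 members that rose were Tsku, tsukushi (from 42.96 to 92.6 CPM, 0.93 ± 0.13), and Podnl1, at a low level (from 0.144 to 0.832 CPM, 2.31 ± 0.43). The median of the list was -6.37 without soft gel replicate 3.

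Elastic fibre genes were lower in 16 of 20 tested. Eln, the elastin precursor, fell from 3825 to 110.1 CPM (-5.35 ± 0.39), and Mfap4, a microfibril-associated glycoprotein abundant in lung, fell from 1464 to 6.204 CPM (-8.07 ± 0.14). Fbn1, the main microfibril protein, fell less (from 4247 to 679 CPM, -2.80 ± 0.18). Ltbp2, which binds fibrillin, was 1 of 3 that rose, at 61.7, 44.4 and 82.1 CPM in sham and 500.0, 570.3 and 543 CPM on the soft gel (2.96 ± 0.18). Another rise was that of Fbln2, fibulin 2, from 1717 to 3055 CPM (0.65 ± 0.16). Ltbp4, which stores latent TGF-beta and guides elastin assembly, fell far (from 4554 to 36.1 CPM, -7.18 ± 0.19), and so did Mfap2, a microfibril component (from 78.1 to 0.442 CPM, -7.56 ± 0.39). The third rise was that of Efemp2, fibulin 4, needed for elastic fibres (from 145 to 267 CPM, 0.71 ± 0.14).

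The matricellular proteins, which signal from the matrix rather than build it, were lower in 19 and higher in 6 of 28 tested. Sparcl1, an anti-adhesive glycoprotein, fell from 1904 to 1.75 CPM (-10.28 ± 0.43). Tnxb, tenascin X, fell from 2942 to 14.7 CPM (-7.82 ± 0.15), whereas Tnc, tenascin C, rose from 39.4 to 393 CPM (3.14 ± 0.20). Fn1, fibronectin, fell from 4979.8 to 2759 CPM (-1.03 ± 0.16) but remained among abundant genes. Thbs1, thrombospondin 1, rose from 742 to 3571 CPM (2.10 ± 0.23). Spp1, osteopontin, rose from 3.36 to 83.6 CPM (4.41 ± 0.21), and Ctgf, a target of the regulator YAP, rose from 1119 to 2876 CPM (1.18 ± 0.13). Basement membrane genes were lower in 13 of 17 (median -3.15), with the laminin chain Lama2 going from 1577 to 67.3 CPM (-4.72 ± 0.19). Tgfbi, a matrix protein induced by TGF-beta, had the second largest fall of the matricellular list (from 1491 to 3.55 CPM, -8.89 ± 0.36). Of the basement membrane linkers and chains, Nid1 fell slightly (from 1953 to 1665 CPM, -0.41 ± 0.14), Lamc1, the shared laminin chain, fell further (from 1857 to 237 CPM, -3.15 ± 0.11), and Egflam, pikachurin, fell most (from 111 to 1.91 CPM, -6.03 ± 0.20). Lama1, the embryonic laminin chain, was the 1 member that rose, at a low level (from 0.161 to 0.527 CPM, 1.86 ± 0.74), and its call was lost without sham replicate 2 (0.89) or without soft gel replicate 1 or 3. The call of Nid1 was lost without any 1 of sham replicates 1 and 2 and soft gel replicates 2 and 3, and with scaling by total reads (-0.21). Hyaluronan, a sugar polymer of the soft matrix, is served by 16 tested genes, of which 7 were lower and 5 higher (median -0.74), near the 39.2% and 31.9% of all genes tested. Vcan, the hyaluronan-binding proteoglycan versican, fell (from 806 to 183 CPM, -2.28 ± 0.23), and Itih5, a chain that attaches to hyaluronan, fell (from 683 to 0.7297 CPM, -10.02 ± 0.53). Cemip, which breaks hyaluronan down, rose (from 1.696 to 199 CPM, 6.88 ± 0.37), and so did Hmmr, a hyaluronan receptor that also acts in mitosis (from 1.04 to 92.7 CPM, 6.27 ± 0.14). Lyve1, a receptor typical of lymphatic vessels, had 3 reads on the soft gel and a ratio of sham to soft gel of 92.5 (95% counting interval 31.4 to 450.5).

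Enzymes that act on collagen after its synthesis were lower in 20 and higher in 8 of 30, and the members that rose most were a crosslinking enzyme and a protease. Lox, lysyl oxidase, which starts collagen crosslinks, stood at 226, 232 and 182 CPM in sham and 2135, 2134 and 1804 CPM on the soft gel, without overlap (3.07 ± 0.19). Its relative Loxl2 fell from 398 to 57.96 CPM (-2.96 ± 0.09). Tll1, a protease that trims procollagen, rose from 5.004 to 357 CPM (5.98 ± 0.20), while Bmp1, of the same family, fell from 472 to 109 CPM (-2.30 ± 0.10). Adamts2, which removes the amino-terminal propeptide of procollagen, fell from 876 to 35.9 CPM (-4.78 ± 0.13). Serpinh1, the collagen chaperone HSP47, stood at 1120.4 and 1012 CPM (-0.32 ± 0.15, not called), and was called lower without sham replicate 1 (-0.47). P4hb, a subunit of prolyl hydroxylase, went from 953 to 1324 CPM (0.29 ± 0.10), a rise whose call was lost without sham replicate 1 or any 1 soft gel library. Pcolce, an enhancer of procollagen trimming, fell (from 1195 to 188 CPM, -2.84 ± 0.15). Adamts3, a relative of Adamts2, fell (from 13.8 to 1.53 CPM, -3.37 ± 0.35).

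An inhibitor of matrix breakdown rose into the most abundant genes of the cultured cells. Timp1, which blocks matrix metalloproteinases, stood at 88.04, 77.97 and 100.4 CPM in sham and 3509, 3527 and 3545 CPM on the soft gel, and rose with a log2 fold change of 5.14 ± 0.15. Its relatives Timp2 (from 4395 to 825 CPM, -2.60 ± 0.11) and Timp3 (from 5797 to 1483 CPM, -2.14 ± 0.14) fell. Plat, the tissue plasminogen activator, fell from 391 to 8.86 CPM (-5.64 ± 0.20). Plaur, the receptor of urokinase, rose from 16.8 to 446 CPM (4.54 ± 0.19), and urokinase itself, Plau, stood at 40.2 and 36.7 CPM (-0.27 ± 0.22, not called). Among the metalloproteinases, Mmp2, a gelatinase, fell from 2449.9 to 56.2 CPM (-5.63 ± 0.09). Mmp13, a collagenase, stood at 0.431, 0.0288 and 0.368 CPM in sham and 60.9, 64.9 and 60.9 CPM on the soft gel (8.08 ± 0.68), and Mmp10, a stromelysin, stood at 0.293, 0.173 and 0.112 CPM and 28.04, 26.6 and 27.5 CPM (6.93 ± 0.28). Without sham replicate 2, the lowest library for Mmp13, its log2 fold change was 7.03. Over the metalloproteinases and their inhibitors, 12 of 20 were lower and 5 higher, beside 39.2% and 31.9% of all genes tested. In the list of ADAMTS and serine proteases with their inhibitors, 21 of 27 were lower and 4 higher. Serpinf1, the inhibitor PEDF, fell (from 1856 to 209 CPM, -3.33 ± 0.13), as did Ctsl, a lysosomal protease (from 1159 to 598 CPM, -1.13 ± 0.11). Adamts15 (from 113 to 0.1203 CPM, -10.02 ± 0.49) and Dpp4, a cell surface peptidase of fibroblasts (from 88.2 to 0.0912 CPM, -9.86 ± 0.65), had the largest falls among these proteases. Timp4 had 3 reads on the soft gel, with a ratio of sham to soft gel of 96.8 (95% counting interval 32.9 to 472). Its fitted log2 fold change moved from -5.61 to -6.67 without sham replicate 2 and to -6.33 without soft gel replicate 3.

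**Figure D2:**
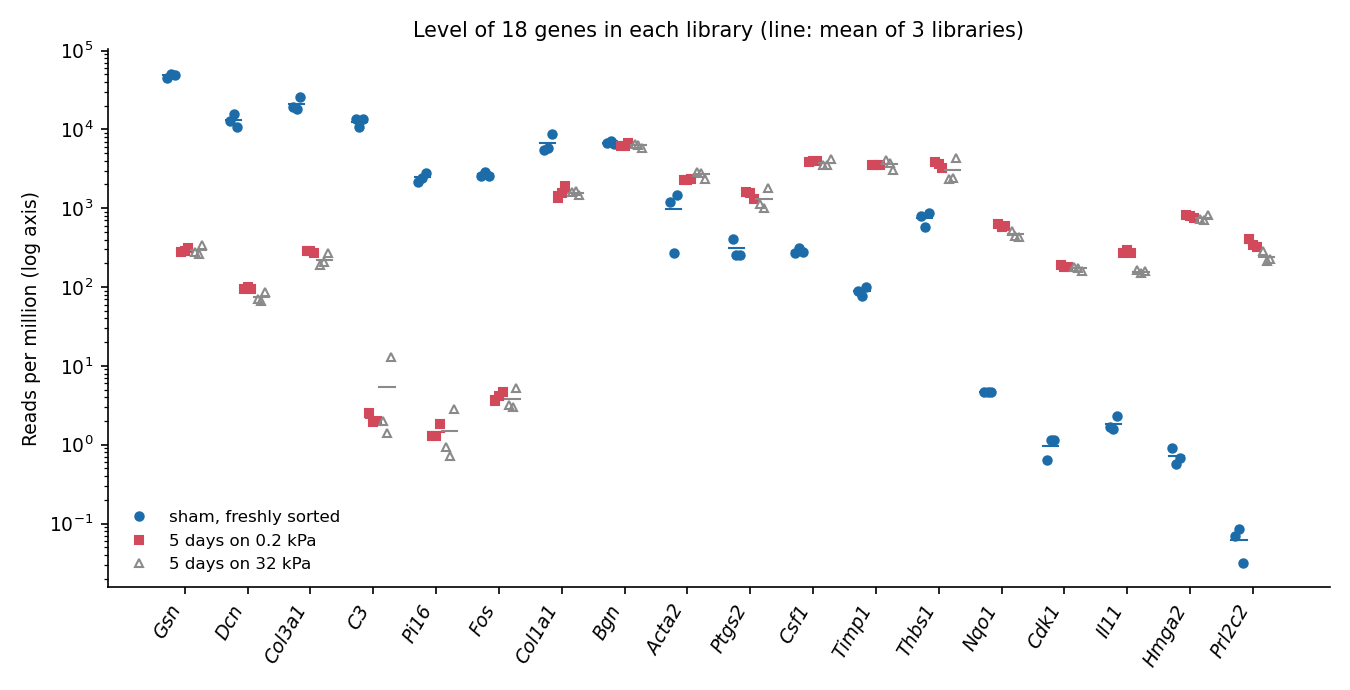
CPM (log axis) of 18 genes in each sham library (circles), 0.2 kPa library (squares) and 32 kPa library (open triangles), with a line at the mean of 3 libraries. For 17 of the 18 genes the sham and 0.2 kPa libraries do not overlap, and Bgn is the exception.

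Complement genes were far lower in the cultured cells. The complement system is a cascade of plasma proteins that tags and lyses microbes, and fibroblasts are a local source of its early components. The 26 genes tested held 24 lower, 1 higher and a median log2 fold change of -4.49. Summed over the list, complement genes took 3.15, 2.77 and 3.10001% of reads in the sham libraries and 0.0217, 0.0214 and 0.0199% on the soft gel. An exact two-sided permutation test of the 2 means gave p = 0.1, the smallest value that 3 against 3 libraries allow. C3, the central component, stood at 13499, 10676 and 13548 CPM in sham and 2.55, 1.92 and 2.01 CPM on the soft gel, with a log2 fold change of -12.68 ± 0.60. C7, a component of the lytic complex, stood at 1125, 762 and 1158 CPM and 0.0626, 0.103 and 0.147 CPM (-13.20 ± 1.00). C4b, whose near-identical copy C4a may share reads with it, fell from 1951 to 0.603 CPM (-11.79 ± 0.53). C1s1, a protease of the first component with the close copy C1s2, fell from 1826 to 1.305 CPM (-10.63 ± 0.45). Serping1, the C1 inhibitor, fell as well, from 6003 to 27.98 CPM (-7.93 ± 0.10). The member that rose was C3ar1, the receptor of the C3a fragment, from 0.361 to 5.87 CPM (3.93 ± 0.38). Of 15 acute-phase genes, 10 were lower (median -2.36), among them Cp, the copper carrier ceruloplasmin (from 373 to 2.13 CPM, -7.64 ± 0.28), and Serpina3n, a protease inhibitor (from 804 to 15.4 CPM, -5.89 ± 0.09). Lbp, which binds bacterial lipopolysaccharide, had the largest fall of that list (from 123 to 0.639 CPM, -7.73 ± 0.26), and Serpina3g was the 1 member that rose (from 0.477 to 2.098 CPM, 1.94 ± 0.32). The median over complement ran from -5.95 with edgeR to -3.60 with a pseudocount of 5.

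Growth factor receptors were mostly lower, and ligands moved in both directions. Of 37 ligand genes, 16 rose and 17 fell, beside 31.9% and 39.2% of all genes tested. Csf1, the growth factor of macrophages, stood at 274, 314 and 279 CPM in sham and 3844, 4016 and 3998 CPM on the soft gel, which placed it among the 10 most abundant genes there (3.59 ± 0.12). Bdnf, a neurotrophin, rose from 3.799 to 232 CPM (5.77 ± 0.14). Ereg, a ligand of the EGF receptor, rose from 5.26 to 229.6 CPM (5.27 ± 0.12). In contrast Igf1 fell from 378 to 129.6 CPM (-1.72 ± 0.12) and Angpt1, a ligand of the endothelial receptor Tek, fell from 109 to 3.04 CPM (-5.36 ± 0.18). Of 26 receptor genes, 20 fell and 3 rose. Pdgfra, the receptor that marks many lung fibroblasts, fell from 1300.3 to 320.3 CPM (-2.20 ± 0.13), and Ntrk2, a receptor of Bdnf, fell from 155 to 0.465 CPM (-8.50 ± 0.44). The IGF-binding proteins and their proteases fell in 9 of 10. Igfbp5 went from 2108 to 12.1 CPM (-7.61 ± 0.32), and Igfbp2 was the member that rose, from 1.19 to 38.7 CPM (5.03 ± 0.41). Of the ligands, Ptn, pleiotrophin (from 23.9 to 0.536 CPM, -6.23 ± 0.85), and Fgf9 (from 6.81 to 0.0878 CPM, -6.17 ± 0.47) had the largest falls. Axl, a receptor of the TAM family and also a target of YAP, stood at 1247 and 1654 CPM (0.23 ± 0.11, not called by limma), and was called higher with scaling by total reads (0.42). Ddr2, a collagen receptor, fell (from 866 to 206 CPM, -2.23 ± 0.18), while Ddr1, its epithelial relative, rose (from 30.5 to 85.7 CPM, 1.30 ± 0.12). Flt4, the receptor of the lymphatic growth factor VEGF-C, rose (from 0.905 to 3.94 CPM, 1.995 ± 0.30), and Erbb3, a neuregulin receptor, fell (from 12.97 to 0.123 CPM, -6.52 ± 0.81). Single libraries moved some of these values, Erbb3 to -7.14 without sham replicate 2 and Ptn to -5.62 or -7.20 without soft gel replicate 1 or 3. Pdgfrb, the other PDGF receptor, fell (from 546 to 335 CPM, -0.88 ± 0.12). With scaling by total reads the count of receptors called higher was 5. Igfbp4 and Igfbp7 were the other abundant binding proteins and fell, Igfbp4 (from 2207 to 58.1 CPM, -5.43 ± 0.18) and Igfbp7 (from 1155 to 578 CPM, -1.18 ± 0.14). Pappa2, a protease that cleaves such proteins, fell (from 71.5 to 0.375 CPM, -7.69 ± 0.33).

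Pathways that pattern the lung in development were mostly lower. Hedgehog signals pass from the epithelium to the mesenchyme and are read out by the transcription factor Gli1 and the receptor Ptch1, which are targets as well as components. Gli1 stood at 133, 98.99 and 177 CPM in sham and 0.417, 0.867 and 0.343 CPM on the soft gel (-8.17 ± 0.36), and Ptch1 fell from 111 to 2.63 CPM (-5.53 ± 0.58). The groups did not overlap for either gene. Of 23 Hedgehog and Notch genes, 18 were lower and 0 higher (median -3.19). In the WNT list 28 of 37 were lower and 1 was higher. Axin2, a direct WNT target, fell from 26.7 to 0.857 CPM (-5.12 ± 0.26), and the member that rose was Lef1, a transcription factor that WNT signals activate, from 0.238 to 3.87 CPM (3.99 ± 0.49). BMP genes fell in 17 and rose in 7 of 29, beside 39.2% and 31.9% of all genes tested. The ligand Bmp4 fell from 81.1 to 5.78 CPM (-3.96 ± 0.19), and Grem1, a secreted BMP antagonist, stood at 0.173, 0 and 0.04804 CPM in sham and 64.6, 68.3 and 51.5 CPM on the soft gel (9.76 ± 0.69), 1 of the 15 largest rises. Without sham replicate 1 or 2 its log2 fold change was 10.56 or 8.89, and that of Lef1 was 3.33 without sham replicate 1. The TGF-beta components were lower in 18 of 27 and higher in 5. The receptor Tgfbr2 fell from 714 to 72.4 CPM (-3.48 ± 0.13), the ligand Tgfb1 rose from 18.4 to 78.7 CPM (1.90 ± 0.19), and the inhibitor Smad7, itself a target of the pathway, rose from 34.4 to 151 CPM (1.95 ± 0.14). Coreceptors of Hedgehog fell together, Cdon (from 627 to 17.9 CPM, -5.31 ± 0.13), Boc (from 310.4 to 14.3 CPM, -4.62 ± 0.16) and Gas1 (from 249.7 to 5.26 CPM, -5.68 ± 0.27). Heyl, a target of Notch in mural cells, fell (from 159 to 0.793 CPM, -7.91 ± 0.91). The secreted WNT antagonists Dkk3 (from 404 to 8.32 CPM, -5.78 ± 0.15), Sfrp1 (from 336 to 16.3 CPM, -4.55 ± 0.11) and Sfrp4 (from 191 to 0.359 CPM, -9.15 ± 0.51) were the 3 most abundant genes of that list and fell, as did the antagonist Wif1 (from 9.602 to 0.0892 CPM, -6.64 ± 0.80). With scaling by total reads the count of WNT genes called higher was 2. Other BMP antagonists diverged, with Chrdl1 falling (from 109 to 0.161 CPM, -9.65 ± 0.75), Twsg1 falling (from 603 to 93.997 CPM, -2.86 ± 0.14) and Nog, noggin, rising from a low level (from 0.242 to 3.24 CPM, 3.45 ± 0.41). Gdf10, a ligand of the family, had its largest fall (from 465 to 0.431 CPM, -10.25 ± 0.49). Among TGF-beta genes the binding proteins Fstl1 (from 3213 to 900.2 CPM, -2.02 ± 0.11) and Ltbp1 (from 608 to 360.3 CPM, -0.94 ± 0.15) and the coreceptor Tgfbr3 (from 426 to 30.9 CPM, -3.96 ± 0.13) fell. Inhba, the activin A chain, rose (from 8.12 to 65.7 CPM, 2.87 ± 0.53).

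Receptors for vasoactive signals fell in 26 of 36. Ptgfr, the receptor of prostaglandin F, fell from 123 to 0.642 CPM (-7.73 ± 0.51), and Npr1, the receptor of atrial natriuretic peptide, fell from 111 to 0.408 CPM (-8.20 ± 0.29). F2r, the thrombin receptor, rose from 245 to 994 CPM (1.84 ± 0.12). On the side of prostaglandin synthesis, Ptgs2, the inducible cyclooxygenase, stood at 409.6, 258 and 258 CPM in sham and 1595, 1566 and 1314 CPM on the soft gel (2.12 ± 0.22). The other cyclooxygenase, Ptgs1, rose from 25.9 to 193 CPM (2.81 ± 0.25). Slco2b1, an organic anion carrier at 103 CPM in sham, had 0 reads in the 3 soft gel libraries, which against a floor of 3 reads over the group is at least 4698-fold lower. Akr1c18, a reductase of steroids and prostaglandins, stood at 0.242, 0.0719 and 0.304 CPM in sham and 72.7, 88.3 and 67.9 CPM on the soft gel (8.41 ± 0.37). Lpar1, a receptor of lysophosphatidic acid, fell (from 208 to 84.997 CPM, -1.47 ± 0.11), and Agtr2, an angiotensin receptor, fell (from 12.9 to 0.0408 CPM, -8.38 ± 0.75), with a log2 fold change of -9.30 without soft gel replicate 3. Npr3, the clearance receptor of natriuretic peptides, rose (from 5.26 to 59.02 CPM, 3.31 ± 0.17). The prostaglandin list held 9 higher and 8 lower of 20, beside 31.9% and 39.2% of all genes tested. Without soft gel replicate 1 or 2 its count of lower genes was 5. Pla2g4a, which releases arachidonic acid, rose (from 145 to 367 CPM, 1.15 ± 0.14), and Slco2a1, the prostaglandin carrier, rose (from 7.61 to 105 CPM, 3.65 ± 0.21). Ptges3, a synthase that also serves as a cochaperone, rose (from 54.1 to 285 CPM, 2.25 ± 0.21), and Cbr2, a lung carbonyl reductase, fell (from 24.7 to 0.145 CPM, -7.63 ± 0.53).

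Cytokine genes were lower in 18 and higher in 7 of 32 ligand and receptor genes, beside 39.2% and 31.9% of all genes tested. Il11, a cytokine of the interleukin 6 family, stood at 1.69, 1.58 and 2.29 CPM in sham and 272, 297 and 269 CPM on the soft gel, with a log2 fold change of 7.06 ± 0.14. Its receptor chains fell, Il11ra1 from 186 to 25.1 CPM (-3.07 ± 0.17) and the shared chain Il6st from 968 to 78.7 CPM (-3.77 ± 0.26). Il6 fell from 97.9 to 8.07 CPM (-3.77 ± 0.17). A ligand and receptor pair also crossed. Il33, an alarmin held in the nucleus of fibroblasts, fell from 287 to 2.31 CPM (-7.15 ± 0.22), and Il1rl1, its receptor ST2, rose from 0.528 to 158 CPM (8.11 ± 0.30). Chemokine genes were lower in 15 of 23. Ccl11, eotaxin, fell from 263 to 0.893 CPM (-8.63 ± 0.99) and Cxcl12, a ligand that retains blood stem cells, fell from 387 to 51.5 CPM (-3.09 ± 0.11), while Ccl2, an attractant of monocytes, rose from 26.7 to 137 CPM (2.18 ± 0.18). Without soft gel replicate 2 the log2 fold change of Ccl11 was -8.04. Il1r1, the receptor of interleukin 1, fell (from 285 to 65.1 CPM, -2.31 ± 0.16). Ackr3, a scavenger of Cxcl12, fell (from 683 to 67.1 CPM, -3.52 ± 0.12). Ccl9 (from 1.34 to 12.4 CPM, 3.05 ± 0.27) and Ccl17 (from 0.107 to 0.762 CPM, 2.49 ± 0.40) rose from low levels. Cxcl13, an attractant of B cells at 16.3 CPM in sham, had 0 reads on the soft gel, at least 780.4-fold lower, and Il1b, at 1.77 CPM in sham, had 0 reads as well, at least 82.9-fold lower. The fitted log2 fold change of Cxcl13 moved from -9.38 to -8.68 without sham replicate 2.

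Of 34 actin and contractile genes, 19 rose and 10 fell, beside 31.9% and 39.2% of all genes tested. The list took 1.19 ± 0.313% of reads in sham and 3.15 ± 0.111% on the soft gel (mean ± SD, n = 3 each, exact permutation p = 0.1). Actb, the common cytoplasmic actin, stood at 1058, 1492 and 1236 CPM in sham and 7463, 7546 and 8736 CPM on the soft gel (2.48 ± 0.21). Myh9, a non-muscle myosin, rose from 202 to 1343 CPM (2.57 ± 0.18). Acta2, the smooth muscle actin that marks myofibroblasts, stood at 1208, 272 and 1455 CPM in sham and 2275, 2297 and 2379 CPM on the soft gel (1.38 ± 0.49). Sham replicate 2 was the low library for Acta2, and without it the log2 fold change was 0.62. The call was lost without any 1 of the soft gel libraries (adjusted p of 0.0561 without replicate 1). Myh11, the myosin of mature smooth muscle, stood at 946, 98.5 and 1046 CPM in sham and 4.88, 4.33 and 3.45 CPM on the soft gel (-6.96 ± 0.75), and here too sham replicate 2 was the low library. Its log2 fold change was -8.07 without sham replicate 2 and -6.37 without sham replicate 3. Actc1, the cardiac actin, was at 90.03, 20.9 and 117 CPM in the sham libraries and had 0 reads on the soft gel, at least 3372-fold lower against the floor of 3 reads. Its fitted log2 fold change moved from -11.65 to -12.40 without sham replicate 2. Tubulins, lamins and intermediate filaments were higher in 14 and lower in 4 of 20. Targets and partners of YAP, the regulator that responds to spreading and tension, were higher in 15 and lower in 6 of 26. Ankrd1 rose from 7.63 to 467 CPM (5.83 ± 0.24), but Cyr61, also a classic target, stood at 1215 and 1301 CPM (-0.08 ± 0.12, not called). Among integrins, 13 of 19 fell and 5 rose. The fibronectin receptor chain Itga5 rose from 149 to 928 CPM (2.49 ± 0.18), and Itga8, a chain typical of alveolar fibroblasts, fell from 351 to 4.51 CPM (-6.38 ± 0.34). Actg1, the second cytoplasmic actin, rose (from 944 to 3076 CPM, 1.53 ± 0.13), as did Cnn2, a calponin (from 100.2 to 684 CPM, 2.59 ± 0.14), and Flna, filamin A, stood at 1974 and 2466 CPM (0.31 ± 0.35, not called). Of the tubulins, Tubb5 rose (from 291 to 2034 CPM, 2.63 ± 0.15) and Tuba1b rose (from 329 to 1118 CPM, 1.59 ± 0.14). Nes, nestin, a filament of progenitor cells, rose (from 45.05 to 689 CPM, 3.91 ± 0.33), and Stmn1, a microtubule destabilizer, rose (from 5.63 to 83.4 CPM, 3.73 ± 0.17). The keratins of simple epithelia fell, Krt18 (from 1.49 to 0.0509 CPM, -4.41 ± 0.72) and Krt8 to 0 reads, at least 53.5-fold lower. In the YAP list, Tead4, its partner factor, rose (from 0.164 to 6.47 CPM, 4.98 ± 0.23), while Nt5e, the CD73 enzyme, fell (from 17.2 to 0.352 CPM, -5.68 ± 0.35) and Gadd45b, a stress gene, fell (from 153 to 29.3 CPM, -2.58 ± 0.15). Itgb1, the shared integrin chain, rose (from 887 to 2253 CPM, 1.17 ± 0.14), and Itgb5 fell (from 398 to 190.2 CPM, -1.25 ± 0.11). Itgb6, an epithelial chain that activates TGF-beta, rose from a low level (from 0.0299 to 0.882 CPM, 4.24 ± 0.52), and its relative Itgb8 fell (from 11.8 to 0.2099 CPM, -5.83 ± 0.55).

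Cell cycle genes rose as a block. All 40 mitosis genes tested were higher (median log2 fold change 5.60), as were 39 of 40 genes of DNA replication and its onset (median 3.15). Mitosis genes took 0.00833, 0.00877 and 0.0107% of reads in sham and 0.392, 0.372 and 0.349% on the soft gel. Cdk1, the kinase that drives entry into mitosis, stood at 0.639, 1.14 and 1.14 CPM in sham and 192, 180.3 and 178 CPM on the soft gel (7.40 ± 0.20). Plk1, another mitotic kinase, rose from 0.996 to 92.6 CPM (6.33 ± 0.15), and Mki67, the proliferation marker Ki-67, rose from 4.19 to 164 CPM (5.20 ± 0.28). Of the replication genes, Mcm5, a subunit of the replicative helicase, rose from 5.94 to 151 CPM (4.48 ± 0.11), and Rrm2, which supplies nucleotides, rose from 6.38 to 367 CPM (5.66 ± 0.12). Ccnd1, cyclin D1, stood at 11.7, 11.7 and 13.5 CPM in sham and 334, 321 and 341 CPM on the soft gel (4.57 ± 0.09). Inhibitors and genes of quiescence went both ways. Cdkn1c, the inhibitor p57, fell from 21.1 to 0.936 CPM (-4.64 ± 0.33), Cdkn1a, the inhibitor p21, rose from 129.8 to 278 CPM (0.92 ± 0.11), and Btg2, an antiproliferative gene, fell from 493 to 35.1 CPM (-3.98 ± 0.12). Cdkn2a, a locus linked to culture stress and senescence, stood at 0.0173, 0.101 and 0.0801 CPM in sham and 3.07, 3.22 and 3.62 CPM on the soft gel (5.28 ± 0.45). Ccnb1, the cyclin of Cdk1, had a rise of similar size (from 0.868 to 162 CPM, 7.34 ± 0.15), and Ccna2, cyclin A, rose (from 5.83 to 196 CPM, 4.89 ± 0.12). Top2a, a topoisomerase, rose (from 4.39 to 232 CPM, 5.58 ± 0.21), and Anln, anillin of the cleavage furrow, rose (from 7.998 to 232 CPM, 4.70 ± 0.18). Mcm10 had the largest rise among replication genes (from 0.261 to 29.9 CPM, 6.58 ± 0.19), and Rrm1 (from 32.1 to 322 CPM, 3.14 ± 0.23) and Pcna, the polymerase clamp (from 56.4 to 248 CPM, 1.95 ± 0.09), were abundant members that rose. Over the regulators of the cycle and p53 targets, 20 were higher and 11 lower of 36, beside 31.9% and 39.2% of all genes tested. Cdk4, the partner of cyclin D, rose (from 71.8 to 402 CPM, 2.31 ± 0.12), and Ccng1, a p53 target, rose (from 81.3 to 417 CPM, 2.19 ± 0.14).

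Promoters of these genes were searched for short motifs, and 3 windows are shown as examples from genes with a large rise. Each window runs from 250 bases before to 50 bases after a RefSeq transcription start (GRCm38.p6, the same assembly as mm10), written 5′ to 3′ on the strand of the gene. Capitals in Cdk1 and Plk1 mark the CHR motif TTTGAA, bound by repressor and activator complexes of the cell cycle, and the CCAAT box (CCAAT), read on both strands. Capitals in Mcm5 mark CCAAT and the E2F motif, TTTGGCGC or TTTCGCGC, of which an overlapping pair lies on opposite strands and shares 4 bases. The Cdk1 window also holds a match to TTTCGCGC, which is left in lower case. The positions are chr10:69352863-69353162, minus strand for Cdk1, chr7:122159185-122159484, plus strand for Plk1 and chr8:75109259-75109558, plus strand for Mcm5.
Cdk1: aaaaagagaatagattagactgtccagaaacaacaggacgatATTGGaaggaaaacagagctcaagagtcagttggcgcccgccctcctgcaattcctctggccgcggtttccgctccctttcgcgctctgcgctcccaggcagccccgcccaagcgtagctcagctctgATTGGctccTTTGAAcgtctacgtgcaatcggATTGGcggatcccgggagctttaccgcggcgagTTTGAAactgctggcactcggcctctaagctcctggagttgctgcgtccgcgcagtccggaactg
Plk1: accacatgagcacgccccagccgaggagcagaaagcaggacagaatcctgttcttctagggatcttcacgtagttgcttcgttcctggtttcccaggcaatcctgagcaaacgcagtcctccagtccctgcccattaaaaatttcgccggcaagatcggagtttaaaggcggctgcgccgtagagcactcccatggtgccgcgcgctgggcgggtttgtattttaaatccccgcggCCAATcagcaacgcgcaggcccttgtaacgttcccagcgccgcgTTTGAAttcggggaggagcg
Mcm5: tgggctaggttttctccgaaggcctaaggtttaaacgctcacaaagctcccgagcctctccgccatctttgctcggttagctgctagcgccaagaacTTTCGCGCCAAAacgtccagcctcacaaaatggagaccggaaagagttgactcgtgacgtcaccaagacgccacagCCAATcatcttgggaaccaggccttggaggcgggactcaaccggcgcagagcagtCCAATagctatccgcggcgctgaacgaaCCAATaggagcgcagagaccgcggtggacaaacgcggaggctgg
The CHR motif was found in 28 of 37 promoter windows (75.7%) of mitosis genes, against 12.8% of 17232 windows of all tested genes. The CCAAT box was found in 28 of 37 promoter windows (75.7%) of mitosis genes, against 37.3%. It was not particular to mitosis, and was found in 81.0% of windows of cholesterol synthesis genes. The E2F motif was found in 12 of 40 promoter windows (30.0000000%) of replication genes, against 1.32%. A match shows only that these letters are in the window.

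Nearly all genes of ribosomal proteins, ribosome assembly, the proteasome and chaperones outside the secretory pathway rose, by amounts that differed between members. All 78 ribosomal protein genes tested were higher, with a median log2 fold change of 1.61, and their share of reads was 1.22, 1.89 and 1.31% in sham and 4.48, 4.58 and 4.84% on the soft gel. Ribosomal protein genes have many near-identical pseudogenes that may share their reads, so single members are uncertain. Rplp0 (from 448 to 2038 CPM, 2.02 ± 0.16), Rpsa (from 522 to 2023 CPM, 1.79 ± 0.16) and Rpl4 (from 864 to 1874 CPM, 0.94 ± 0.13) were the most abundant, and Rps12 (from 80.7 to 524 CPM, 2.63 ± 0.31) and Rpl29 (from 0.291 to 2.12 CPM, 2.60 ± 0.31) had the largest rises. All 39 proteasome subunits and cytosolic or mitochondrial chaperones were higher as well (median 1.60). Hspd1, the mitochondrial chaperonin, rose from 123 to 998 CPM (2.83 ± 0.13). Ribosome biogenesis genes were higher in 35 of 36. Npm1, nucleophosmin, a nucleolar assembly factor, rose from 186 to 1671 CPM (2.98 ± 0.11), and Myc, a transcription factor that drives many of these genes, rose from 80.9 to 128 CPM (0.48 ± 0.11). Of the genes of the secretory pathway in the endoplasmic reticulum, 9 were higher, 10 lower and 11 not called, shares near or below the 31.9% and 39.2% of all genes tested. Hspa5, its main chaperone BiP, fell from 2024 to 1225 CPM (-0.91 ± 0.12), and Dnajb9, a target of the unfolded protein response, fell from 168 to 59.6 CPM (-1.66 ± 0.14). The most abundant chaperones rose less than Hspd1, Hsp90ab1 (from 1259.5 to 3265 CPM, 1.19 ± 0.13), Hspa8 (from 674 to 1773 CPM, 1.21 ± 0.12) and Hsp90aa1 (from 320.1 to 1097 CPM, 1.60 ± 0.19). Hspe1, the partner of Hspd1, rose (from 25.7 to 242 CPM, 3.10 ± 0.22). In the nucleolar list Ncl, nucleolin, rose (from 288 to 1687 CPM, 2.38 ± 0.15) and Mybbp1a rose (from 91.1 to 344 CPM, 1.73 ± 0.13), with the largest rises in Nme1, a nucleotide kinase (from 28.02 to 343 CPM, 3.44 ± 0.17), and Wdr12, a 60S assembly factor (from 8.25 to 82.6 CPM, 3.14 ± 0.09). Calr, calreticulin, rose slightly (from 1131 to 1663 CPM, 0.38 ± 0.11), and Hsp90b1 stood at 1624 and 1653 CPM (-0.16 ± 0.17, not called). Sec61b, of the translocation channel, rose (from 20.1 to 85.5 CPM, 1.94 ± 0.30), Pdia5, a disulfide isomerase, rose (from 22.6 to 56.1 CPM, 1.13 ± 0.09), and Dnajc3, a cochaperone of Hspa5, fell (from 358 to 173 CPM, -1.22 ± 0.12). The count of secretory pathway genes called lower was 6 without soft gel replicate 2 and 5 with scaling by total reads.

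Genes of oxidative phosphorylation and cholesterol synthesis were mostly higher, while lipid handling and retinoid genes were mostly lower. Nuclear genes of oxidative phosphorylation were higher in 39 of 41 (median 1.33), and none was lower. Of these, Cox5a, a subunit of the terminal oxidase, rose from 16.8 to 126 CPM (2.73 ± 0.26). The 13 genes that the mitochondrion itself encodes are listed at 0 in every library and were not used. Glycolysis and hypoxia genes were higher in 14 and lower in 9 of 30, beside 31.9% and 39.2% of all genes tested. Eno1, an enolase, stood at 71.4, 78.9 and 76.6 CPM in sham and 1223, 1290.1 and 1451 CPM on the soft gel (3.94 ± 0.12), and Pkm, pyruvate kinase, rose from 228 to 2409 CPM (3.22 ± 0.11). Pdk1 and Ndrg1, both known hypoxia targets, fell (from 7.22 to 2.002 CPM, -2.02 ± 0.20, and from 129.6 to 21.02 CPM, -2.80 ± 0.10). Cholesterol synthesis genes were higher in 17 of 26, while the 2 lower members, Abca1 and Abcg1, export cholesterol rather than make it. Abca1 fell from 217 to 12.5 CPM (-4.30 ± 0.15). Subunits of ATP synthase were the most abundant of the respiratory genes, with Atp5b rising (from 411 to 1459.8 CPM, 1.64 ± 0.11), Atp5a1 (from 348 to 776 CPM, 0.98 ± 0.10) and Atp5g3 (from 68.3 to 294 CPM, 1.94 ± 0.23). Uqcrq, of complex III, had the largest rise (from 5.92 to 48.5 CPM, 2.82 ± 0.38). Aldoa, the aldolase of glycolysis, rose (from 285 to 1211 CPM, 1.92 ± 0.15). The sterol enzymes Msmo1 (from 22.2 to 161 CPM, 2.69 ± 0.15) and Cyp51 (from 22.2 to 159 CPM, 2.70 ± 0.18) rose. Lipid handling genes were lower in 17 and higher in 8 of 31 (median -0.64), beside 39.2% and 31.9% of all genes tested. Apoe, a carrier of lipids between cells, fell (from 1107 to 4.52 CPM, -8.17 ± 0.27), and Apod fell (from 379 to 0.568 CPM, -9.63 ± 0.47). Lpl, lipoprotein lipase, fell (from 550.0 to 94.3 CPM, -2.73 ± 0.10), Fabp5, a fatty acid carrier, rose (from 8.69 to 152 CPM, 3.98 ± 0.18), and Scd2, a desaturase, stood at 348 and 419 CPM (0.08 ± 0.10, not called), and was called higher with scaling by total reads (0.28). Pparg, the regulator of lipid storage, rose (from 3.16 to 9.16 CPM, 1.35 ± 0.21). Retinoid genes were lower in 17 and higher in 2 of 25. Rarres2, the adipokine chemerin, fell (from 578 to 1.91 CPM, -8.39 ± 0.19), Adh1, a retinol dehydrogenase, fell (from 254 to 8.73 CPM, -5.01 ± 0.20), and the receptor Rarg fell (from 139.8 to 40.4 CPM, -1.97 ± 0.16). Lrat, which stores retinol as ester, had 1 read on the soft gel, a ratio of 3370.3 (95% counting interval 605 to 133149), and Crabp1, a retinoic acid carrier, rose from a low level (from 0.459 to 1.38 CPM, 1.36 ± 0.33).

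Amino acid supply genes, many of them targets of the stress factor ATF4, were higher in 28 and lower in 6 of 38 (median 1.77). Asns, asparagine synthetase, stood at 3.55, 5.71 and 4.004 CPM in sham and 175, 176 and 173 CPM on the soft gel (5.14 ± 0.16). Psat1 and Phgdh, of serine synthesis, rose from 11.3 to 319 CPM (4.64 ± 0.10) and from 24.7 to 371 CPM (3.73 ± 0.12). Chac1, which degrades glutathione and marks strong ATF4 activity, rose from 0.184 to 13.7 CPM (6.00 ± 0.34). The tRNA synthetase genes Nars (from 123 to 519 CPM, 1.90 ± 0.09) and Gars (from 91.9 to 420.0 CPM, 2.01 ± 0.09) were the abundant members that rose, and Slc38a2, a carrier of neutral amino acids, stood at 442 and 483 CPM (-0.04 ± 0.16, not called). Cbs, of cysteine synthesis (from 2.78 to 0.191 CPM, -3.89 ± 0.55), and Vldlr, a lipoprotein receptor (from 230.0 to 20.04 CPM, -3.70 ± 0.12), had the largest falls. The mRNA of Atf4 itself went from 330.4 to 299 CPM (-0.33 ± 0.10), a fall whose call was lost without soft gel replicate 2 (-0.30) and with scaling by total reads (-0.13). ATF4 is controlled largely at translation, which RNA levels do not show. Its response element, here TGATGNAA on either strand (CARE), was found in 10 of 34 promoter windows (29.4%) of these genes, against 2.55% of all tested genes. The window of Asns, chr6:7693160-7693459, minus strand, is shown with the element in capitals.
Asns: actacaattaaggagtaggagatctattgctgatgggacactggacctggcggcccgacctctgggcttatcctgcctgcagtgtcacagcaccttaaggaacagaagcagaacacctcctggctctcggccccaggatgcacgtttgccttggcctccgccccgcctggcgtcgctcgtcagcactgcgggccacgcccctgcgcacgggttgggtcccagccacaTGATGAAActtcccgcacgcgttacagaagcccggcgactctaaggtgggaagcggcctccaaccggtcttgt

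Redox genes held some of the largest rises in the data. Many are targets of NRF2, a factor released when electrophiles or oxidants reach the cell. Of 41 tested, 30 were higher and 8 lower (median 1.91), and the share of reads was 0.561, 0.678 and 0.563% in sham and 2.13, 2.23 and 2.41% on the soft gel. Nqo1, a quinone reductase, stood at 4.66, 4.72 and 4.72 CPM in sham and 639, 574 and 592 CPM on the soft gel (6.81 ± 0.11). Hmox1, heme oxygenase 1, stood at 22.6, 21.96 and 23.5 CPM and 1840.1, 2068 and 2245 CPM (6.31 ± 0.15). Both were without overlap. Gsta2, a glutathione transferase, rose from 0.0746 to 130.1 CPM (10.27 ± 0.15). Gsta1, a near-identical copy that may share its reads, had 0 reads in sham and 53.6, 51.9 and 63.7 CPM on the soft gel, at least 3545-fold higher against the floor. Prdx1, a peroxiredoxin, reached a high level (from 216 to 3110.0 CPM, 3.68 ± 0.17), and both ferritin chains were abundant, Fth1 (from 955 to 2417 CPM, 1.16 ± 0.19) and Ftl1 (from 715 to 5788 CPM, 2.84 ± 0.27). Txnrd1, thioredoxin reductase, rose from 64.5 to 1289 CPM (4.14 ± 0.10). The largest falls of the list were those of Sod3, the extracellular superoxide dismutase (from 888 to 24.2 CPM, -5.39 ± 0.19), Gstt1, a theta-class glutathione transferase (from 94.98 to 3.18 CPM, -5.06 ± 0.20), and Gpx3, the plasma glutathione peroxidase (from 621 to 25.7 CPM, -4.79 ± 0.19). Nfe2l2, which encodes NRF2, stood at 146 and 179 CPM (0.11 ± 0.13, not called). Cyp1a1, a target of the aryl hydrocarbon receptor, stood at 0.138, 0.0431 and 0.03203 CPM in sham and 81.6, 80.1 and 63.5 CPM on the soft gel (9.70 ± 0.35).

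**Figure D3:**
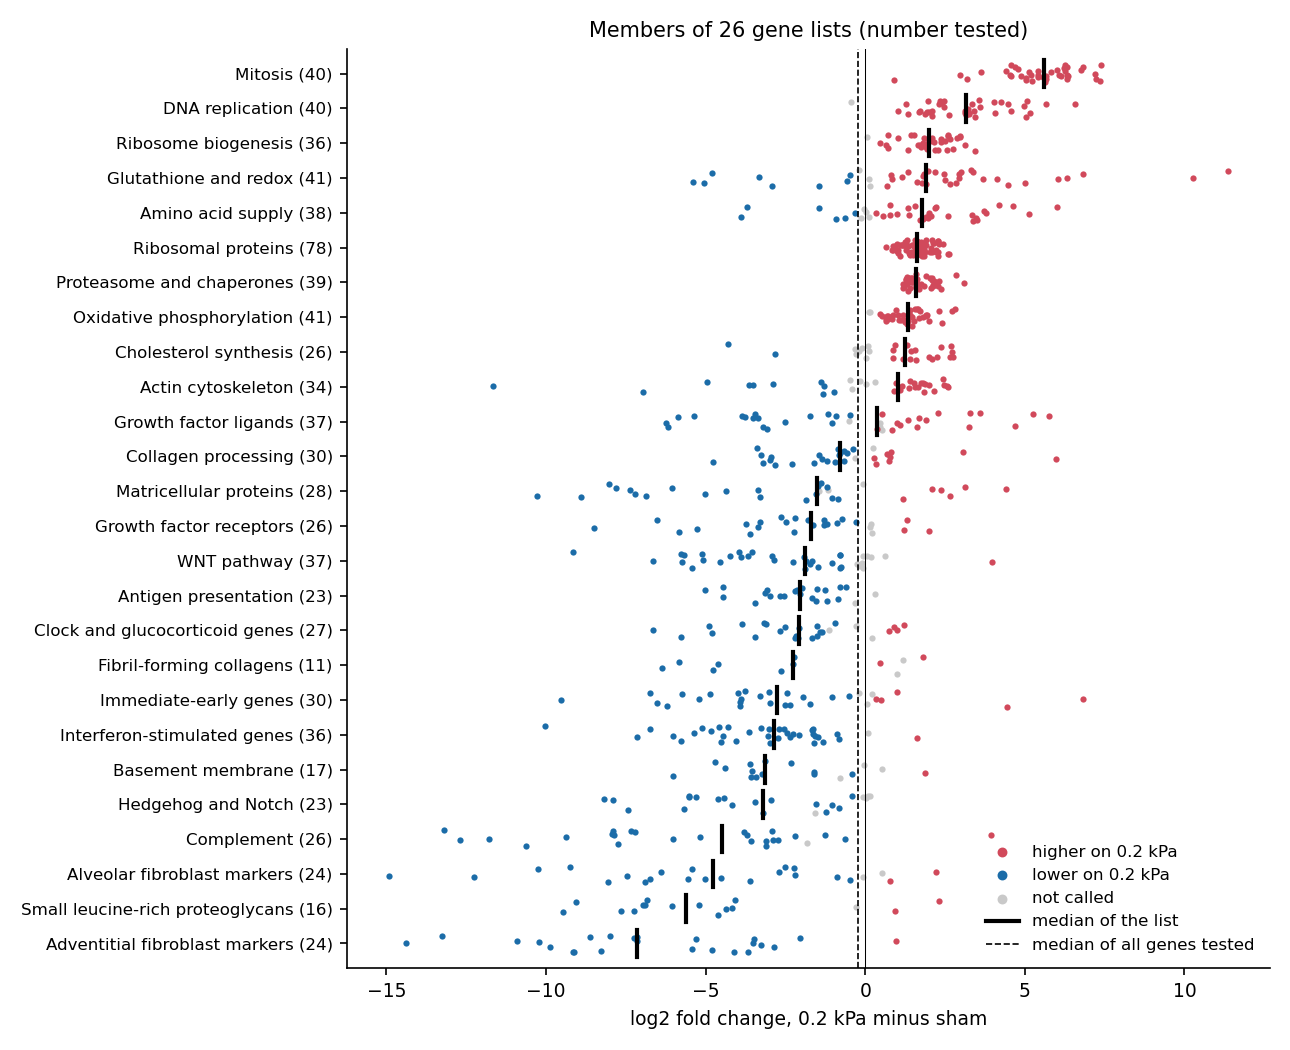
Log2 fold change (0.2 kPa minus sham) of every tested member of 26 gene lists, one point per gene, with a bar at the median of the list and a dashed line at the median of all genes tested (-0.22). Mitosis has the highest median of the lists drawn (5.60) and the adventitial fibroblast markers the lowest (-7.15).

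Genes of innate defence were lower. Of 36 interferon-stimulated genes, 34 fell and 1 rose (median -2.86), and of 23 antigen presentation genes 21 fell and 0 rose (median -2.06). Gbp2, a guanylate-binding protein, fell from 147 to 5.82 CPM (-4.84 ± 0.16), and its relative Gbp7 stood at 46.4, 34.1 and 38.3 CPM in sham and 0.9597, 0.702 and 0.759 CPM on the soft gel (-5.76 ± 0.25). Irf1, a factor that interferon induces, fell from 157 to 8.04 CPM (-4.46 ± 0.16). Ifitm3, which blocks virus entry, fell from 360.1 to 97.2 CPM (-2.06 ± 0.23). The class I genes fell less, H2-K1 from 193 to 96.1 CPM (-1.19 ± 0.23) and H2-D1 from 804 to 380.4 CPM (-1.25 ± 0.19). Ifi205 (from 39.5 to 0.0277 CPM, -10.04 ± 0.52) and Cmpk2, a mitochondrial nucleotide kinase (from 17.3 to 0.117 CPM, -7.15 ± 0.48), had the largest falls, and Ifi27 fell less (from 112 to 41.3 CPM, -1.62 ± 0.14). B2m, the light chain of class I, stood at 549 and 497 CPM (-0.31 ± 0.18, not called), and Psmb9, an immunoproteasome subunit, fell (from 7.43 to 0.244 CPM, -5.02 ± 0.51). The count of antigen presentation genes called higher was 1 without sham replicate 2. Oasl1, an antiviral gene, was the 1 interferon-stimulated gene that rose (from 0.561 to 2.01 CPM, 1.61 ± 0.34). Leukocyte markers summed to 0.011995, 0.0241 and 0.0189% of reads in sham and 0.00178, 0.00196 and 0.00259% on the soft gel, with 23 of 26 lower, and their part in these falls was not tested. The interferon response element, here 2 copies of GAAA with any 2 bases between them, on either strand (ISRE), was found in 16 of 28 promoter windows (57.1%) of the interferon list, against 3.12% of all tested genes. The window of Gbp7, chr3:142530086-142530385, plus strand, carries 1 such element, in capitals.
Gbp7: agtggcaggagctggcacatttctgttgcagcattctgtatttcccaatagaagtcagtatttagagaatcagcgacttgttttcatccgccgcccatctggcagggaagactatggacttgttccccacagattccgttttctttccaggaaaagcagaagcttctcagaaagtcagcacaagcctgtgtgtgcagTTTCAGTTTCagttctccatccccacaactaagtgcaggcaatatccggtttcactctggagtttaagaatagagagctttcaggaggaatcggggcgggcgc

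Immediate-early genes, which cells switch on within minutes of a stimulus such as tissue digestion, were high in the fresh cells. Of 30 tested, 22 fell and 5 rose on the soft gel, and the list took 1.59, 1.62 and 1.55% of reads in sham and 0.191, 0.201 and 0.213% on the soft gel. Sham cells were digested for 45 min and lysed after the sort, and this handling and the lung as the source cannot be told apart in these levels. Fos stood at 2549.9, 2911 and 2569 CPM in sham and 3.57, 4.19 and 4.699 CPM on the soft gel (-9.51 ± 0.18). Egr1, another such factor, fell from 4418 to 94.7 CPM (-5.73 ± 0.11), and Jun, the partner of Fos in AP-1, fell from 683 to 57.2 CPM (-3.77 ± 0.13). Fosb fell (from 1339 to 16.3 CPM, -6.53 ± 0.16), as did the stress factor Atf3 (from 317 to 3.34 CPM, -6.75 ± 0.12), and Dusp5, a phosphatase that limits the kinase ERK, rose (from 1.999 to 49.3 CPM, 4.45 ± 0.26). Fosl1, a slower relative of Fos, went the other way, at 1.24, 1.31 and 1.75 CPM in sham and 157, 182 and 222 CPM on the soft gel (6.83 ± 0.23). Genes of the circadian clock and of glucocorticoid response were lower in 20 and higher in 4 of 27. Per1, a clock gene that glucocorticoids induce, fell from 119 to 15.1 CPM (-3.12 ± 0.20), and the clock outputs Dbp (from 40.4 to 3.15 CPM, -3.87 ± 0.24) and Hlf (from 61.7 to 0.731 CPM, -6.66 ± 0.41) fell further. Arntl, the core activator of the clock, stood at 41.8 and 55.1 CPM (0.23 ± 0.13, not called), and was called higher without sham replicate 2 (0.36) or with scaling by total reads (0.43). Npas2, a partner of the same kind, fell (from 59.3 to 1.22 CPM, -5.77 ± 0.22), whereas the repressor Cry1 (from 6.87 to 15.4 CPM, 1.01 ± 0.19) and Ciart (from 1.39 to 3.36 CPM, 1.21 ± 0.39) rose, though without soft gel replicate 3 Ciart was not called (1.04). Nr3c1, the glucocorticoid receptor, fell (from 306 to 123 CPM, -1.50 ± 0.16), and its targets diverged, with Errfi1 falling (from 665 to 280.4 CPM, -1.42 ± 0.11) and Sgk1 rising (from 154 to 291 CPM, 0.75 ± 0.13). The labels give no time of day for the harvest.

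Of 50 transcription factors of the lung mesenchyme tested, 25 were lower, 13 higher and 12 not called. Over all genes tested, 39.2% were lower and 31.9% higher. Tcf21, a factor of alveolar fibroblasts, fell from 95.6 to 16.8 CPM (-2.69 ± 0.17), and Tbx4, which marks lung mesenchyme from its origin, fell from 46.1 to 5.51 CPM (-3.23 ± 0.20). Runx2, a factor of bone formation, rose from 3.58 to 42.96 CPM (3.40 ± 0.11), and Foxc2, a factor of vessel and connective tissue development, rose from 4.49 to 47.5 CPM (3.22 ± 0.29). Prrx1, a general mesenchymal factor, stood at 304 and 334 CPM (-0.04 ± 0.12, not called). Klf4, also an early response gene, fell (from 699.9 to 80.1 CPM, -3.31 ± 0.09), and Zeb2 fell (from 299 to 123 CPM, -1.45 ± 0.14). Meox2 (from 91.1 to 3.86 CPM, -4.74 ± 0.19) and Ebf2 (from 87.02 to 7.84 CPM, -3.67 ± 0.33) had the largest falls. Of 27 Hox genes, which record position along the body axis, 16 were not called, 9 were higher and 2 lower. Among all 18480 genes tested, 5345 were not called. Hoxa5, a gene with a role in lung development, rose from 22.96 to 38.01 CPM (0.57 ± 0.17), a call that was lost without sham replicate 1 (0.45) or sham replicate 3 (0.48). The neighbours Hoxb6, Hoxb7 and Hoxb8 rose from low levels, Hoxb6 from 3.29 to 11.5 CPM (1.60 ± 0.30), Hoxb7 from 1.48 to 9.24 CPM (2.47 ± 0.26) and Hoxb8 from 0.223 to 5.92 CPM (4.45 ± 0.34). Hoxc13 had 0 reads in sham and 1.09 CPM on the soft gel, at least 69.7-fold higher, and Hoxb9 had 1 read in sham, with a ratio of soft gel to sham of 244 (95% counting interval 43.1 to 9674). Hoxb3 (from 31.6 to 25.3 CPM, -0.50 ± 0.11) and Hoxa2 (from 10.7 to 7.58 CPM, -0.67 ± 0.18) were the 2 that fell, and Hoxa3 stood at 22.4 and 27.8 CPM (0.13 ± 0.22, not called). Guidance genes, which steer axons and vessels and are used by mesenchyme too, were lower in 25 and higher in 7 of 36. The secreted cues Slit3 (from 678 to 3.81 CPM, -7.64 ± 0.19), Ntn1 (from 537 to 40.7 CPM, -3.90 ± 0.10), Sema3c (from 504 to 151 CPM, -1.92 ± 0.18) and Sema3b (from 77.3 to 0.441 CPM, -7.63 ± 0.40) fell. The membrane ligand Efnb2 (from 10.5 to 165 CPM, 3.80 ± 0.10) and the receptor Epha2 (from 4.86 to 73.7 CPM, 3.74 ± 0.11) rose. Cntn4, an adhesion protein of neurons, was among the 15 largest falls (from 142 to 0.0867 CPM, -10.55 ± 0.32).

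Genes known from embryo, placenta and tumour held several of the 15 largest rises. Hmga2, a chromatin protein of embryonic and transformed cells, stood at 0.915, 0.561 and 0.673 CPM in sham and 821, 806 and 754 CPM on the soft gel (9.92 ± 0.14), and its relative Hmga1 rose from 1.46 to 172 CPM (6.77 ± 0.29). Igf2bp1, an mRNA-binding protein of the fetus, rose from 0.0433 to 3.66 CPM (5.74 ± 0.33), while Igf2, whose mRNA it is named for, stood at 59.1, 79.5 and 54.4 CPM in sham and 0.313, 0.516 and 10.6 CPM on the soft gel (-5.86 ± 1.05). Soft gel replicate 3 was the high library for Igf2, and the log2 fold change was -7.41 without it, -4.91 without replicate 1 and -5.24 without replicate 2. Over the fetal and imprinted list, 8 were higher and 10 lower of 26, which is near the 31.9% and 39.2% of all genes tested. Prl2c2, proliferin, a placental relative of prolactin also known from growing mouse cells in culture, stood at 0.06903, 0.0863 and 0.03203 CPM in sham and 412, 339 and 325 CPM on the soft gel. It had the largest rise of the genes that reached 50 CPM in either group, with a log2 fold change of 11.98 ± 0.24. Prl2c3 is nearly identical to it, may share its reads, and stood at 0.0173, 0.0144 and 0.03203 CPM in sham and 177, 184 and 164 CPM on the soft gel (11.94 ± 0.19). Further genes among the 15 largest rises were Pkp1, a desmosome protein (from 0.249 to 75.8 CPM, 8.12 ± 0.32), Ptprn, a protein of secretory granules (from 0.571 to 141 CPM, 7.85 ± 0.32), Tmem59l (from 0.0749 to 51.2 CPM, 9.16 ± 0.43) and 3300005D01Rik (from 0.2303 to 57.4 CPM, 7.68 ± 0.18). Grb10, an imprinted adaptor of insulin signals, rose (from 220.2 to 361 CPM, 0.53 ± 0.10), and Igf2r, which clears Igf2, fell (from 316 to 146 CPM, -1.29 ± 0.14). Dio3, which inactivates thyroid hormone, had 2 reads on the soft gel, a ratio of sham to soft gel of 184 (95% counting interval 50.6 to 1519.7). Prolactin family genes were higher in 5 of 6, and the receptor Prlr was the 1 that fell (from 7.86 to 0.236 CPM, -5.12 ± 0.71). Their median was 5.12, and 5.56 with genes at 0 reads set to their bound.

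Most markers of lung fibroblast types fell. Adventitial fibroblasts form the sheath of vessels and airways, and alveolar fibroblasts lie in the alveolar wall. Of 24 adventitial markers, 23 were lower and 1 higher (median -7.15), and of 24 alveolar markers, 20 were lower and 2 higher (median -4.77). Adventitial markers took 3.301, 3.702 and 3.29% of reads in sham and 0.0897, 0.0914 and 0.0947% on the soft gel, and alveolar markers 0.8895, 0.973 and 0.847% and 0.133, 0.127 and 0.121%. Pi16, which marks the adventitial reservoir of fibroblasts, stood at 2177, 2444 and 2760.3 CPM in sham and 1.29, 1.28 and 1.81 CPM on the soft gel (-10.89 ± 0.38). Clec3b, tetranectin, stood at 1064, 1474 and 1414 CPM and 0.0835, 0 and 0.122 CPM (-14.39 ± 0.81), and Scara5, a ferritin receptor, at 1447, 1392 and 1506 CPM and 0.146, 0.124 and 0.171 CPM (-13.26 ± 1.09). All 3 had groups far apart, and for Clec3b the log2 fold change was -13.55 without soft gel replicate 2, which had 0 reads. Inmt, a methyltransferase abundant in lung, stood at 1437, 2192 and 1552 CPM in sham and 0.0209, 0.0619 and 0.0489 CPM on the soft gel, the largest fall of the genes that reached 50 CPM (-14.91 ± 1.12). Ces1d, a carboxylesterase of alveolar fibroblasts, had 1 read over the 3 soft gel libraries against 25917 in sham, a ratio of sham to soft gel of 18728 (95% counting interval 3361 to 739759). Galnt15, a glycosyltransferase, had 3 reads on the soft gel and a ratio of 8143 (95% counting interval 2786 to 39488). Of the alveolar markers, Plin2, a lipid droplet coat protein, rose from 47.999 to 252 CPM (2.22 ± 0.12), and Gyg, which primes glycogen, rose from 37.5 to 71.5 CPM (0.77 ± 0.15). Npnt, nephronectin, stood at 163 and 266 CPM (0.54 ± 0.33) and the ligand Wnt2 at 11.2 and 12.1 CPM (-0.07 ± 0.16), and neither was called. The adventitial marker that rose was Adh7, an alcohol dehydrogenase (from 13.6 to 30.2 CPM, 0.98 ± 0.22). Among surface proteins of mesenchymal cells Cd34 fell from 2177 to 63.4 CPM (-5.29 ± 0.12), Cd44 rose from 112 to 838 CPM (2.72 ± 0.09) and Thy1 stood at 162 and 147 CPM (-0.31 ± 0.14, not called), though without sham replicate 3 Thy1 was called lower (-0.41). Cdh2, N-cadherin, had the largest rise of the surface proteins (from 6.54 to 124 CPM, 4.11 ± 0.30). Gpc3, a proteoglycan that binds growth factors, fell (from 1606 to 10.8 CPM, -7.40 ± 0.14), and the Ly6 proteins Ly6c1 (from 241 to 0.232 CPM, -10.21 ± 0.49) and Ly6a, known as Sca-1 (from 631 to 2.79 CPM, -8.00 ± 0.19), fell far. Ogn, mimecan, a marker read as alveolar here, fell (from 1496 to 14.2 CPM, -6.88 ± 0.15).

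Summed markers of epithelium, leukocytes, endothelium, Schwann cells, mesothelium and red cells took at most 0.0979% of reads in each library of both groups and were lower in every soft gel library than in every sham library, which did not hold for pericyte and smooth muscle markers. Epithelial markers took 0.0256, 0.0485 and 0.0312% of reads in sham and 0.00244, 0.00272 and 0.002604% on the soft gel, with 17 of 18 lower. Abca3 held most of the reads of this list on the soft gel. Sftpc, a surfactant protein of alveolar epithelium, was at 55.3, 152 and 96.8 CPM in sham and had 2 reads on the soft gel in all, a ratio of sham to soft gel of 7161 (95% counting interval 1982 to 59134). Leukocyte markers took 0.011995, 0.0241 and 0.0189% in sham and 0.00178, 0.00196 and 0.00259% on the soft gel, with 23 of 26 lower. Ptprc, the CD45 gene used in the sort, was at 8.28 CPM in sham and 2.77 CPM on the soft gel, and Epcam, also used, at 0.883 CPM and 0.0646 CPM. Igha, an antibody heavy chain of plasma cells, was at 38.2, 187 and 28.4 CPM in sham and had 0 reads on the soft gel, at least 4087-fold lower. Sham replicate 2 was the high library for Igha, and its fitted log2 fold change moved from -11.61 to -10.76 without that library. Endothelial markers took 0.0452, 0.0469 and 0.0468% and 0.0167, 0.0185 and 0.0195%, and Pecam1, the CD31 gene, fell from 15.2 to 0.3802 CPM (-5.46 ± 0.33). Eng, which was not called, held most of the endothelial share on the soft gel. Schwann cell markers took 0.0979, 0.0591 and 0.0884% and 6.45e-04, 6.94e-04 and 7.15e-04%, all 11 being lower. Most of their share in sham came from Scn7a, which is also on the list of alveolar fibroblast markers. Pericyte markers took 0.304, 0.226 and 0.286% and 0.233, 0.236 and 0.215%, a share whose groups overlapped, and Abcc9, a channel subunit of pericytes, fell from 572 to 2.26 CPM (-8.12 ± 0.27). Smooth muscle markers took 0.389, 0.391 and 0.398% on the soft gel, within the range of the sham libraries. The ratio of the soft gel to the sham mean was 1.30 with all libraries and 0.978 without sham replicate 2. Of the 13 smooth muscle markers, 10 were lower and 2 higher (median log2 fold change -3.20). The 2 that rose, Acta2 and Tagln, held most of the reads of this list on the soft gel. Mesothelial markers took 0.00251, 0.00167 and 0.00223% on the soft gel, and 11 of 13 were lower. The part of these other cells in the falls described above was not tested.

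Within the pericyte list 13 of 16 members were lower and 2 higher (median log2 fold change -4.38). The 2 that rose were Cald1, caldesmon (from 425 to 1508 CPM, 1.66 ± 0.16), and Cspg4, NG2 (from 48.4 to 143 CPM, 1.59 ± 0.39). Cald1 held most of the reads of this list on the soft gel. Postn, periostin (from 683 to 269 CPM, -1.53 ± 0.20), and the channel Kcnj8 (from 67.8 to 0.224 CPM, -8.30 ± 0.24) were among those that fell. Without sham replicate 2 the log2 fold change of Cspg4 was 0.99. Within the smooth muscle list Tagln, an actin-binding protein, stood at 496, 124 and 559 CPM in sham and 1463, 1482 and 1464 CPM on the soft gel (1.99 ± 0.44, and 1.30 without sham replicate 2), and Rbp4, a retinol carrier, fell (from 96.7 to 2.24 CPM, -5.61 ± 0.36). Mesothelial Upk3b (from 19.3 to 0.118 CPM, -7.70 ± 1.02), Gpm6a (from 10.6 to 0.0916 CPM, -7.04 ± 0.95) and Rspo1 (from 17.3 to 0.513 CPM, -5.08 ± 0.41) fell. Upk1b rose (from 4.03 to 11.4 CPM, 1.74 ± 0.56), but its call was lost without sham replicate 1 (1.52), sham replicate 3 (1.16) or soft gel replicate 1 (1.60), and by edgeR and DESeq2. Over the fits that left out 1 library, Upk3b ran from -8.90 (without soft gel replicate 1) to -6.78 (without sham replicate 2) and Gpm6a from -8.09 to -6.22 for the same libraries. Endothelial Eng stood at 143 and 142 CPM (-0.20 ± 0.12, not called), Calcrl fell (from 19.9 to 12.6 CPM, -0.79 ± 0.25) with a call lost without soft gel replicate 3 (-0.62), Ackr1 fell (from 6.55 to 0.0797 CPM, -6.19 ± 0.38) and Flt1 rose (from 4.904 to 12.9 CPM, 1.20 ± 0.19), while Cldn5 had 1 read on the soft gel, a ratio of 341 (95% counting interval 60.9 to 13500.1). Epithelial Abca3 fell (from 94.6 to 24.03 CPM, -2.15 ± 0.15), and Scgb1a1, at 30.2, 118 and 3.25 CPM in sham, and Sftpa1, at 24.4, 39.3 and 34.6 CPM, had 0 reads on the soft gel, at least 2444-fold and 1518-fold lower. The fitted log2 fold change of Scgb1a1 moved from -10.23 to -9.03 without sham replicate 2 and to -11.62 without sham replicate 3. Of leukocyte genes, Lyz2 (from 59.7 to 2.41 CPM, -5.34 ± 0.95), Cd74 (from 44.5 to 0.0372 CPM, -9.86 ± 0.65) and Cd68 (from 23.5 to 3.68 CPM, -2.82 ± 0.24) fell. Without soft gel replicate 1 or 3 the log2 fold change of Lyz2 was -4.39 or -6.18, and that of Cd74 was -9.24 without soft gel replicate 2. H2-Aa had 0 reads on the soft gel, at least 537-fold lower, and Csf1r, the receptor of Csf1, rose (from 3.55 to 8.87 CPM, 1.21 ± 0.27). Scn7a, a sodium channel at 796, 499 and 677 CPM in sham, fell (from 657 to 1.195 CPM, -9.25 ± 0.30), as did the Schwann cell gene Cdh19 (from 27.3 to 0.0949 CPM, -7.85 ± 0.59), the latter at -8.45 without sham replicate 2. Red cell genes took 6.32e-04, 0.00403 and 0.00156% of reads in sham and 2.92e-05, 1.24e-05 and 2.20e-05% on the soft gel, with all 5 lower. Of the haemoglobin genes, which are near-identical and may share reads, Hbb-bs (2.95, 18.6 and 7.45 CPM in sham), Hba-a1 (1.97, 16.5 and 4.24 CPM) and Hbb-b1 (0.759, 2.43 and 1.95 CPM) had 0 reads on the soft gel. Sham replicate 2 was the high sham library for all 3.

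**Figure D4:**
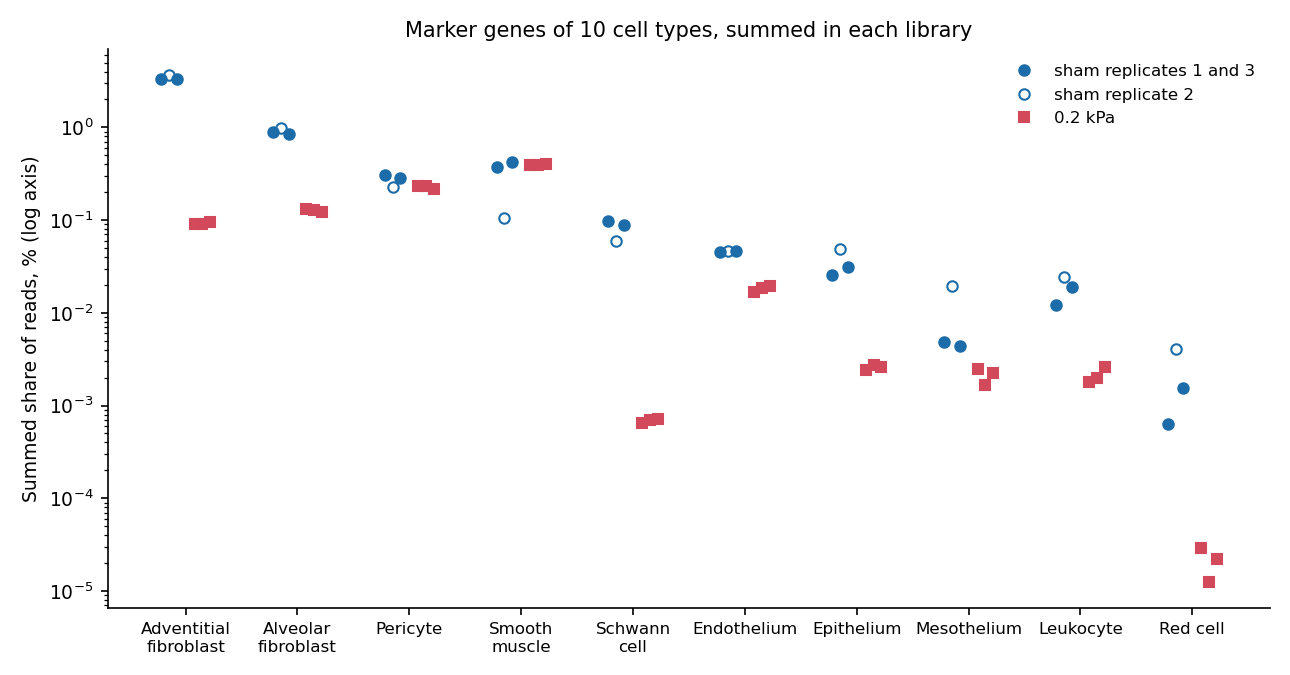
Summed share of reads (%, log axis) of the marker genes of 10 cell types in each sham library (circles, replicate 2 open) and each 0.2 kPa library (squares). The groups do not overlap for 8 of the 10 lists, and they overlap for pericyte and smooth muscle markers, where sham replicate 2 is the lowest sham library.

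Accessible chromatin of the same cell groups was read from the authors' deposited table of regions that differ between sham and 0.2 kPa, in which 3 ATAC libraries a group were compared. It holds only regions that passed the authors' own cuts on false discovery rate and fold change. The table lists 47475 regions, of which 41750 were higher in sham and 5725 higher on the soft gel, as log2 read concentrations that are the authors' own. The labels do not say how these concentrations were normalized between libraries. Promoter windows were available for 13723 tested genes, and 71.3% of those overlapped regions of the table that were all less accessible on the soft gel. This share was 83.8% of 4464 genes with higher RNA, 67.2% of 5482 genes with lower RNA and 62.3% of 3777 genes with no RNA call. The loss was thus spread over genes of either RNA direction and over genes with no RNA call. Promoters of all 57 ribosomal protein genes with a window, all 31 of oxidative phosphorylation and 34 of 35 of mitosis overlapped only less accessible regions, although their RNA rose. At Cdk1 the authors' deposited table gives a fall from 9.07 to 6.68 in log2 concentration. At C3, whose RNA fell, it gives a fall from 7.71 to 4.40. Falls are also given at genes whose RNA was not called, from 10.62 to 7.13 at Glyr1 and from 8.49 to 6.18 at Hadha.

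A promoter with only more accessible regions was rare, at 29 genes, and 22 of these had higher RNA, 2 lower and 5 no call. Il11, Mmp10, Akr1c18 and Prl2c3, all described above, were among them. The authors' deposited table gives a change from 4.42 to 5.94 in log2 concentration at Il11, from 2.05 to 5.11 at Mmp10, from 2.09 to 5.17 at Akr1c18 and from 1.66 to 3.51 at Prl2c3. Serpinb2, an inhibitor of urokinase chosen here after its values were seen, also had such a promoter, and its RNA rose from 0.0698 to 34.5 CPM (8.45 ± 0.26). The windows of Il11, chr7:4778092-4778391, minus strand, and Mmp10, chr9:7502092-7502391, plus strand, are shown because they gained both accessibility and RNA. Capitals mark the AP-1 motif TGANTCA, the site of Fos and Jun family dimers.
Il11: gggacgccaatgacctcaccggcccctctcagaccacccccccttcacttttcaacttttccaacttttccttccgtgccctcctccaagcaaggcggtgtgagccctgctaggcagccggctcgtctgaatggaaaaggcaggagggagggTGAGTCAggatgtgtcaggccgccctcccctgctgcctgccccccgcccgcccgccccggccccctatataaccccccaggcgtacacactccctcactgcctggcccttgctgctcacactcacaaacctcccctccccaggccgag
Mmp10: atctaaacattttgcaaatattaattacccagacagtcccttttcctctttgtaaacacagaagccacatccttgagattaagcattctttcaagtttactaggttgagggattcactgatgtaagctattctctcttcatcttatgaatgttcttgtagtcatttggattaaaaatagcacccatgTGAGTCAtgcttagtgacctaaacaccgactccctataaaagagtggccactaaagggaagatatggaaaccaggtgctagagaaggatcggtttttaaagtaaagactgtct
Among windows that overlapped a more accessible region, in genes with only such regions, the AP-1 motif was found in 15 of 29 (51.7%). It was found in 6.04% of all windows of all tested genes. Windows of the same genes that overlapped no such region were not counted, among them a second Il11 window with 0 matches. The 29 windows were chosen by accessibility and the motif was looked at afterwards, so the shares are a description.

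**Figure D5:**
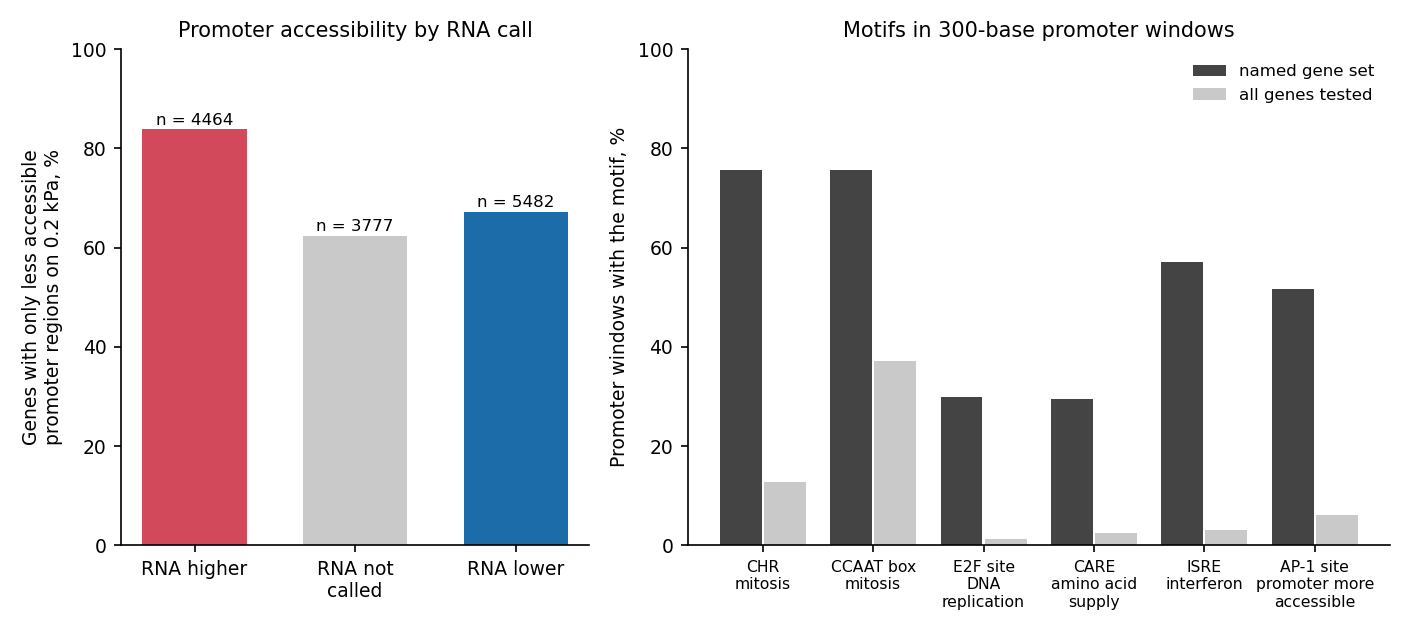
Left, share of genes (%) whose promoter window overlaps only less accessible regions of the authors' table, by RNA call, 83.8% for genes with higher RNA and 67.2% for genes with lower RNA. Right, share of promoter windows (%) that hold a motif, in a named gene set (dark) and in all tested genes (light). For the AP-1 motif the dark bar holds only windows that overlap a more accessible region.

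A small set of genes kept its level. The interval of the log2 fold change lay within 0.25 of 0 for 16 genes with a mean of at least 100 CPM. The 10 named by the rule were Tcf25, Glyr1, D17Wsu92e, Riok3, Hadha, Chtop, Elmo2, Cggbp1, Ap2b1 and Gna13, and with scaling by total reads Tcf25 (0.27), Chtop (0.24), Riok3 (0.23) and D17Wsu92e (0.21) were called higher. Hadha, of mitochondrial fatty acid oxidation, stood at 108 and 123 CPM (0.01 ± 0.08, 95% interval -0.17 to 0.20), and Ap2b1, an adaptor of endocytosis, at 171 and 196 CPM (0.01 ± 0.09, 95% interval -0.20 to 0.22). Gapdh, often used as a reference, had only 4.78 and 10.4 CPM in sham and on the soft gel (0.97 ± 0.51, not called, and called in a fit of the 2 groups alone), and it has many near-identical pseudogenes, so this value is uncertain.

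The 3 libraries from gels of 32 kPa are set beside these values. Both gels share the sham libraries as their control, so agreement between their changes is not given. Tested directly by limma, 32 kPa against 0.2 kPa called 0 of 18480 genes (0.0%), with 323 higher and 687 lower at an unadjusted p of at most 0.05. By edgeR's quasi-likelihood test 1 gene was called, and DESeq2 called 4 higher and 39 lower on 32 kPa. Leaving out 32 kPa replicate 3 raised the limma count to 315 higher and 509 lower, so the count of 0 does not show that the gels gave the same RNA. Il11 was at 163, 152 and 157 CPM on 32 kPa, below each of the soft gel libraries and with a log2 difference from 0.2 kPa of -0.74 (95% interval -1.04 to -0.44), which was not called. C3 was at 2.01, 1.41 and 12.98 CPM with a difference of 0.72 (95% interval -0.62 to 2.06), and Cdk1 at 181, 176 and 162 CPM with a difference of 0.00 (95% interval -0.45 to 0.44). Col1a1 was at 1583, 1632 and 1455 CPM with a difference of 0.06 (95% interval -0.40 to 0.52), and Acta2 at 2881, 2823 and 2338 CPM with a difference of 0.29 (95% interval -0.79 to 1.37).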

How the data were processed

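Gene values of the CD1 libraries are deposited as normalized signal, in which the reads of a gene are divided by 1 factor per library. Per the submitters' processing notes the tools, listed there without roles, were bedtools, Bowtie2, DESeq2, DiffBind, featureCounts, HISAT2, HOMER, MACS2, Picard, SAMtools and Subread, with mm10. Versions and the strand setting are not given in these sources. Without strand, overlapping and antisense genes cannot be told apart. The factors could be recovered, and 100% of values then came out as whole reads within 0.05, from which depth, CPM and count tests were computed. Rows with no gene symbol, 855 of 27178 with 2.13 to 3.65% of the reads of a library, were left out, and 26 symbols that a spreadsheet had turned into dates were restored.

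Values were rescaled by median-of-ratios and tested as log2(value + 1) with limma 3.58.1 (R 4.3.3, trended variance) over all 9 CD1 libraries, 3 groups of 3, for genes with a mean of at least 1, at a Benjamini-Hochberg adjusted p of at most 0.05; fold changes are on that scale and understate the change of low genes. Alternatives were edgeR 4.0.16 (quasi-likelihood, TMM), DESeq2 1.42.0, other scalings, pseudocounts of 0.5 and 5, filters of none and 10, a fit of the 2 groups alone, a replicate block and leaving out each library. The limma fit, but not those of edgeR and DESeq2, was tested on simulated data. The simulation held far fewer changed genes than were called here, so it does not test the choice of scaling. Where a group had 0 reads, 3 reads over its libraries served as the floor; intervals of read ratios are 95% exact and cover counting error only. No label says whether replicates came from different animals or dishes. A p-value here is therefore set by the variation among the 3 libraries of a group, and this may be technical. Named genes were the 3 most abundant members of each list with its 2 largest called rises and falls, the 15 largest rises and falls at 50 CPM or more with groups that do not overlap, the 10 most abundant genes of each group, 10 stable genes, a panel of 8 genes (Col1a1, Col1a2, Pdgfra, Pdgfrb, Acta2, Tcf21, Pparg and Mki67) and other list members by role. Some genes that meet this rule are not reported here. The comparison, the lists and these genes were chosen with earlier results of these data known.

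The authors deposited the table of chromatin regions with log2 concentrations per group, and p-values that were not used; regions were joined to RefSeq promoter windows of 300 bases (GRCm38.p6) by an overlap of at least 1 base.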

Additional observations from a re-analysis of the deposited data

How the results depend on the processing

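Across the alternatives the count of genes higher on 0.2 kPa than in sham ran from 5435 to 6599 and of lower genes from 6207 to 7588, all within 1.5 times the reported counts. The largest departures were 6599 higher and 6394 lower with scaling by total reads and 6207 lower with a mean of at least 10. For 32 kPa against 0.2 kPa the count of lower genes was 1 with edgeR, 39 with DESeq2, 4 with scaling by total reads, 2 with the values as deposited, 1 with a pseudocount of 5 and 2 with a mean of at least 10, and the count of higher genes was 4 with DESeq2. Leaving out 1 library gave 0 to 315 higher and 0 to 509 lower genes in that comparison, with both high values without 32 kPa replicate 3. The cause was not tested. The ratio of smooth muscle read shares, 1.30, turned to 0.978 without sham replicate 2 and ran up to 1.64 without sham replicate 3. Labels number the replicates, but same-numbered libraries did not deviate together (correlations of 0.069, -0.061 and -0.020), and the replicate block gave 5750 higher and 7077 lower genes. Genes with few reads in either group are limited by depth, and their fold changes depend on the pseudocount.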
